A study of Mus musculus with 20 samples.

Results

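The proteasome subunit genes were the 34 protein coding genes of the table whose symbol begins with *Psma*, *Psmb*, *Psmc* or *Psmd* followed by a number, out of 15876 genes in all. *Psmb8* and *Psmb9* were not among them by this rule, and *Psmb6* had no row in the table used here. They were divided into 14 genes of the core particle (*Psma1* to *Psma7*, *Psmb1* to *Psmb5*, *Psmb7* and *Psmb10*) and 20 genes of the regulatory particle (*Psmc1* to *Psmc6* and *Psmd1* to *Psmd14*). The choice was made by symbol, with no use of the measured values.

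RNA was sequenced from colonic intestinal epithelial cells (IECs) of 10 control (Con) and 10 stressed (Str) mice, with 1 library per mouse. All were adult male C57BL/6NCrl mice of 6 to 8 weeks of age with a conventional gut microbiota. Str mice, housed 3 to a cage, met an aggressor mouse of the same strain for 2 h/d on 6 d and were killed 12 to 15 h after the last exposure, and Con mice were not handled. IECs were taken with magnetic beads as live cells without the leukocyte protein CD45 and with the epithelial adhesion protein EpCAM, and cages are not given for the libraries, so p-values treat the mice as independent.

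The proteasome is the barrel-shaped protease that breaks down proteins tagged with ubiquitin. Its core particle is a stack of rings: the outer rings are made of the α subunits (*Psma* genes), which gate the entry, and the inner rings of the β subunits (*Psmb* genes), some of which carry the protease sites. The regulatory particle caps the barrel. Its ATPase ring (*Psmc* genes) unfolds the substrate and threads it into the core, while its other subunits (*Psmd* genes) bind ubiquitin, remove it or hold the lid together. 3 of the genes named *Psmd*, *Psmd5*, *Psmd9* and *Psmd10*, encode chaperones that help to assemble the cap and leave it afterwards. In cells exposed to interferon the catalytic β subunits are replaced by inducible counterparts to form the immunoproteasome, which alters the peptides made for presentation on MHC class I. *Psmb10* encodes the inducible counterpart of *Psmb7*, which has the trypsin-like activity. The genes of both particles are known to be transcribed together under NFE2L1, a factor that restores subunit synthesis when the proteasome is inhibited.

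Library totals ranged from 20034127 to 26141352 counts. Levels are given as CPM (counts scaled to a common library total) after TMM scaling, and the 34 genes made up 0.253 to 0.331% of all counts. All 8 epithelial markers were measured, with summed levels of 17920 to 24473 CPM in Con and 19125 to 22414 CPM in Str. Of 8 leukocyte markers only *Ptprc* and *Itgam* had a row, at summed levels of 2.59 to 6.59 CPM in Con and 2.00 to 5.04 CPM in Str. Neither passed the test, nor did any of the fibroblast and muscle, endothelial or erythrocyte markers (5, 3 and 2 measured). Within the epithelial list *Krt20* and *Slc26a3* were higher and *Car1* was lower in Str, and the part of epithelial composition in the results below was not tested. In 4 Con libraries (CV3, CV4, CV6 and CL1) albumin mRNA reached 69.3 to 79.9 CPM, against 1.64 to 3.19 CPM in the other 16, and results are therefore also given without them. Of the other liver markers with a row, *Ttr* was lower in Str (31.0 to 51.9 CPM in Con and 23.7 to 36.7 CPM in Str, log2 fold change -0.48, adjusted p = 0.00132 in edgeR), and *Trf* had a log2 fold change of -0.06 (adjusted p = 0.824). The part of liver transcripts in the results was not tested beyond leaving out those libraries. Library names join C or S for the group with a letter, V or L, which the sources used here do not explain, and a number. There were 5 V and 5 L libraries in each group.

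Str was set against Con for every gene by edgeR's quasi-likelihood test, and calls of higher or lower rest on adjusted p-values under 0.05, by the Benjamini-Hochberg method across the 15876 genes. 3 of the 34 genes were higher in Str: *Psmb10*, *Psmd7* and *Psmd12*. Only *Psmd5* was lower. In bulk libraries fewer cells of a type and less RNA per cell cannot be told apart. The 4 called genes are 11.8% of the members, where 16.7% of all genes were called. In the upward direction the share was 8.82% against 8.94% of all genes, and in the downward direction 2.94% against 7.72%. The share of proteasome genes called was thus near or below that of the whole table, and 0 passed the stricter thresholds of the study, an absolute log2 fold change over 0.5 with an adjusted p under 1e-05. At an unadjusted p under 0.05 there were 7 of 34 genes, where 30.3% of all genes were, the other 3 members being *Psmc2*, *Psmd3* and *Psmd4*.

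**Figure D1:**
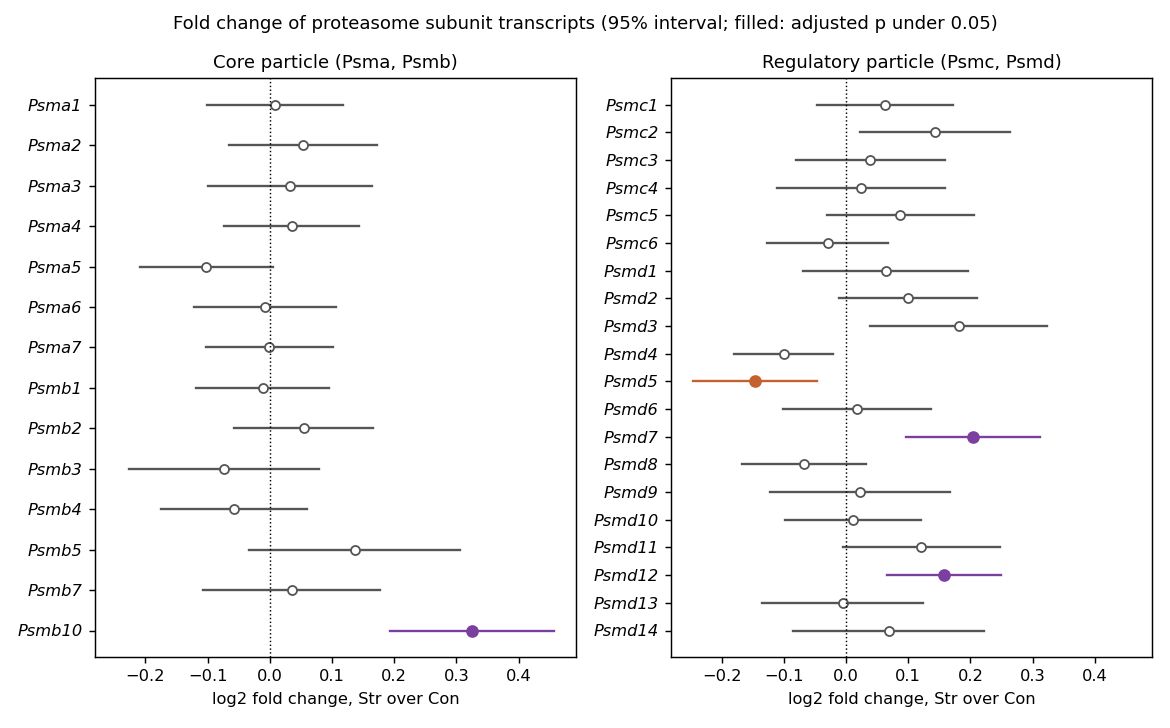
Log2 fold change (Str over Con, 10 against 10 libraries) of each of the 34 genes on the x axis, with its 95% interval, core genes on the left and regulatory particle genes on the right. Filled points passed an adjusted p under 0.05: *Psmb10*, *Psmd7* and *Psmd12* lie to the right of 0, *Psmd5* lies to the left, and the other 30 genes have open points.

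Changes were small throughout. The median log2 fold change was 0.02 over the core genes and 0.05 over the regulatory particle genes, beside -0.0042 over all genes. The median absolute log2 fold change was 0.06 for the 34 genes and 0.11 for all genes. Standard errors were between 0.038 and 0.081 on the log2 scale, so the 95% interval lay within 0.25 of 0 on both sides for 29 of the 34 genes and within 0.5 for all 34. Between mice the 34 genes had a median coefficient of variation of 7.90% in Con and 9.92% in Str, beside 11.98 and 13.34% over all genes. These comparisons with all genes were not matched for level, and the whole table reached down to a mean count of 6. The part of level in the smaller spread and changes of the members was not tested.

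The core genes comprised 13 that did not pass the test and *Psmb10*. *Psmb10* (chr8:105935735-105938444, minus strand, GRCm38) was at 30.4 to 42.9 CPM in Con (median 39.8) and at 41.7 to 56.9 CPM in Str (median 47.4). The groups barely overlapped: 9 of the 10 Str libraries lay above the highest Con library, and all 10 lay above the Con median. The log2 fold change was 0.33 ± 0.063 (SE, n = 10 per group), a 1.25-fold rise with an adjusted p of 0.00120 (edgeR). The lowest Con value, 30.4 CPM, was that of CV4, a library with albumin mRNA. Without the 4 such libraries the log2 fold change was 0.28 with an adjusted p of 0.0119 in edgeR. Leukocytes, which carry the immunoproteasome constitutively, left little trace in these libraries, the median of the summed leukocyte markers being 3.37 CPM in Con and 3.19 CPM in Str.

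**Figure D2:**
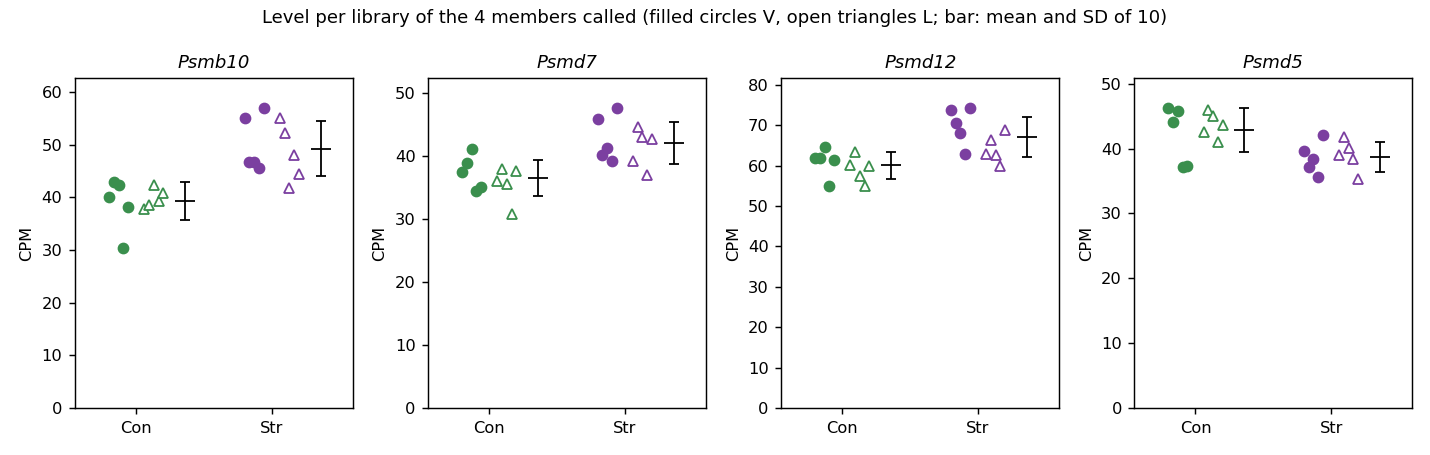
CPM of *Psmb10*, *Psmd7*, *Psmd12* and *Psmd5* (y axis, from 0) in each Con and Str library, filled circles for V and open triangles for L libraries, with the mean and SD of the 10 libraries at the side. *Psmb10* stands at 39.3 ± 3.63 CPM in Con and 49.3 ± 5.21 CPM in Str, and *Psmd5* at 42.8 ± 3.38 and 38.7 ± 2.30 CPM.

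*Psmb7* (chr2:38588036-38644087, minus strand), whose product is replaced by that of *Psmb10* in the immunoproteasome, was at 105 to 142 CPM in Con (median 113) and 99.3 to 146 CPM in Str (median 115). Its groups overlapped over nearly their whole range, with a log2 fold change of 0.04 ± 0.068 (adjusted p = 0.773, edgeR). The mRNA of the inducible subunit was also set against that of the constitutive one, as the log2 ratio of their counts within each library, which does not depend on scaling between libraries. The ratio was -1.57 ± 0.164 in Con and -1.28 ± 0.149 in Str (SD, n = 10 each), a difference of 0.29 or 1.23-fold, with p = 0.000380 in a two-sided permutation test of 100000 resamples. All 10 Str libraries lay above the Con median and 8 lay above the highest Con library. Within the V libraries the difference was 0.30 (exact permutation p = 0.0238, n = 5 each) and within the L libraries 0.29 (exact permutation p = 0.00794, the smallest that 5 against 5 allows). Without the 4 Con libraries with albumin mRNA it was 0.19 (permutation p = 0.00724, 6 against 10). With *Psmb7* not called, the ratio is largely the difference in *Psmb10* mRNA measured another way. Of the 3 planned ratios only this could be formed.

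**Figure D3:**
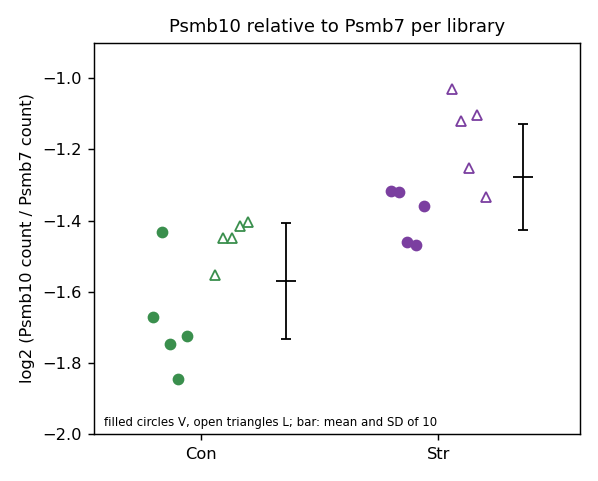
Log2 ratio of the *Psmb10* count to the *Psmb7* count (y axis) in each library of Con and Str, filled circles for V and open triangles for L, with the mean and SD of 10 at the side. The Con libraries lie between -1.85 and -1.40 and the Str libraries between -1.47 and -1.03.

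*Psmb5* (chr14:54614119-54618022, minus strand) encodes the catalytic subunit with chymotrypsin-like activity. It was the lowest core gene, at 9.65 to 14.04 CPM in Con (median 11.8) and 10.7 to 16.8 CPM in Str (median 13.2). Its log2 fold change was 0.14 ± 0.081 with an adjusted p of 0.268 in edgeR, 8 of 10 Str libraries lying above the Con median. The level of *Psmb5* is uncertain because the gene *Gm3375* matches its transcript with 98.9% identity over 796 bases, and how reads that fit both were counted is not given in the sources used here.

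Among the α subunits 0 of 7 passed the test in edgeR, DESeq2 or limma-voom. In edgeR 0 had an unadjusted p under 0.05, where 30.3% of all genes had one. The log2 fold changes of the 7 genes lay between -0.10 and 0.05. *Psma5* had the smallest p of the family, at 70.7 to 92.5 CPM in Con (median 85.6) and 71.8 to 92.5 CPM in Str (median 77.9). Its log2 fold change was -0.10 ± 0.051 (adjusted p = 0.180, edgeR), and it was called only with library sizes alone as the scaling (log2 fold change -0.15, adjusted p = 0.0420). *Psma2* followed with 83.5 to 109 CPM in Con (median 95.1), 85.4 to 119 CPM in Str (median 97.5) and a log2 fold change of 0.05 ± 0.057 (adjusted p = 0.565, edgeR). The noncatalytic β subunits *Psmb1*, *Psmb2*, *Psmb3* and *Psmb4* had log2 fold changes of -0.01, 0.05, -0.07 and -0.06, none past the test.

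In the regulatory particle *Psmd7* and *Psmd12* rose and *Psmd5* fell, 3 of 20 genes (15%), where 16.7% of all genes were called. *Psmd7* (chr8:107580381-107588464, minus strand) encodes the lid subunit that forms a dimer with the deubiquitinase PSMD14. It was at 30.8 to 41.1 CPM in Con (median 36.8) and at 37.1 to 47.6 CPM in Str (median 42.0). All 10 Str libraries lay above the Con median and 6 above the highest Con library. The log2 fold change was 0.20 ± 0.051, a 1.15-fold rise with an adjusted p of 0.00825 in edgeR. Its partner *Psmd14*, which cuts ubiquitin chains off the substrate, had a log2 fold change of 0.07 ± 0.073 (adjusted p = 0.571).

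*Psmd12* (chr11:107479484-107504362, plus strand) encodes a scaffold subunit of the lid. It was at 54.9 to 64.7 CPM in Con (median 60.9) and at 59.9 to 74.2 CPM in Str (median 67.3), with 9 of 10 Str libraries above the Con median and 6 above the highest Con library. The log2 fold change was 0.16 ± 0.044 with an adjusted p of 0.0153 in edgeR. Without the 4 Con libraries with albumin mRNA, *Psmd7* and *Psmd12* kept their calls, with log2 fold changes of 0.21 and 0.17 and adjusted p of 0.0336 and 0.0497 in edgeR. *Psmd7*, *Psmd12* and *Psmb10* were called whichever of the 20 libraries was left out.

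*Psmd5* (chr2:34849734-34874968, minus strand), the assembly chaperone, was at 37.1 to 46.2 CPM in Con (median 43.9) and at 35.3 to 42.1 CPM in Str (median 38.7). All 10 Str libraries lay below the Con median, although only 2 lay below the lowest Con library, so the ranges overlapped. The log2 fold change was -0.15 ± 0.047 with an adjusted p of 0.0369 in edgeR. This call was near the threshold: it was lost in 13 of the 20 comparisons that left out 1 library, where the adjusted p in edgeR ranged from 0.0143 to 0.0720. It was kept without CV4, CV6, CL4, SV6, SL2, SL4 or SL5 and lost without any of the others. Without the 4 Con libraries with albumin mRNA the log2 fold change was -0.19 (adjusted p = 0.0147, edgeR). The other chaperones of the cap, *Psmd9* and *Psmd10*, had log2 fold changes of 0.02 and 0.01. Leaving out the 3 chaperones, 2 of 17 regulatory particle genes were higher and 0 were lower at an adjusted p under 0.05 in edgeR. Of these 17 genes 5 had an unadjusted p under 0.05. The shares of all genes were 8.94% higher, 7.72% lower and 30.3% at an unadjusted p under 0.05.

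Of the ATPase genes 0 of 6 were called by edgeR, DESeq2 or limma-voom, with 1 at an unadjusted p under 0.05 in each. In edgeR 30.3% of all genes had such an unadjusted p. *Psmc2* had the smallest p, at 69.5 to 86.6 CPM in Con (median 76.2) and 72.6 to 103 CPM in Str (median 80.5), with 9 of 10 Str libraries above the Con median. Its log2 fold change was 0.14 ± 0.057 (adjusted p = 0.0899, edgeR). *Psmc5* followed at 61.4 to 78.6 CPM in Con (median 68.8) and 65.0 to 89.2 CPM in Str (median 71.1), with a log2 fold change of 0.09 ± 0.056 (adjusted p = 0.313). Both groups overlapped widely for these genes. *Psmc2* was called with the letter and number of the library name together as a block (log2 fold change 0.18, adjusted p = 0.0181, edgeR). It was also called in the same 16 libraries without the block (0.19, adjusted p = 0.0482, edgeR). *Psmd3*, a lid scaffold, and *Psmd4*, a receptor for ubiquitin chains, were named after their values were seen because they lay near the threshold. *Psmd3* had a log2 fold change of 0.18 ± 0.068 (adjusted p = 0.0686, edgeR) and *Psmd4* one of -0.10 ± 0.038 (adjusted p = 0.0741). *Psmd3* was called with DESeq2 (adjusted p = 0.0497) with the letter as a covariate in edgeR (adjusted p = 0.0493), without SV5, SL1 or SL5, and in those 16 libraries with the block (adjusted p = 0.0257) or without it. *Psmd4* was called with limma-voom (adjusted p = 0.0438), with library sizes alone and without CV4, CV6 or SV1. The other *Psmd* genes not yet named had log2 fold changes between -0.07 (*Psmd8*) and 0.12 (*Psmd11*).

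Scaling bore on the balance of directions. With library sizes alone, 1031 of all genes were called higher and 1949 lower, against 1420 and 1226 with TMM factors, and the median log2 fold change of all genes shifted to -0.046. The members called were then *Psmb10* and *Psmd7* higher and *Psma5*, *Psmd4* and *Psmd5* lower. *Psmd12* had a log2 fold change of 0.11 under that scaling (adjusted p = 0.0606, edgeR).

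Between genes, levels were compared as CPM per kilobase of the principal transcript in Con. In the core *Psmb1* (101 CPM per kilobase, range 89.1 to 115), *Psmb7* (101, range 90.6 to 123) and *Psma7* (98.7, range 89.1 to 114) were at the top, and these neighbours did not differ beyond their ranges. At the bottom were *Psmb5* (13.2 CPM per kilobase, range 10.7 to 15.6), *Psmb10* (30.0, range 23.2 to 32.7) and *Psma2* (32.7, range 28.7 to 37.4). The level of *Psmb5* did not overlap that of *Psmb10*, while those of *Psmb10* and *Psma2* overlapped. In the regulatory particle *Psmd4* (96.1 CPM per kilobase, range 87.3 to 104) and *Psmc3* (93.5, range 81.6 to 101) led. The 3 assembly chaperones held the 3 lowest places of the 20 genes, *Psmd10* at 18.1 CPM per kilobase (range 14.8 to 19.8), *Psmd5* at 9.74 (range 8.44 to 10.5) and *Psmd9* at 5.76 (range 4.91 to 6.51). Their ranges did not overlap each other, but that of *Psmd10* overlapped that of the next gene up, *Psmd11* (20.1, range 17.7 to 22.0). By mean CPM in Con, without division by length, *Psmd5* (42.8) was above the lid gene *Psmd7* (36.5). Transcript lengths come from the annotation, and long annotated ends lower the value per kilobase.

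The 34 genes rose and fell together from library to library, in both groups. In SV6, 26 of the 34 genes had their highest value of all 20 libraries, and in CL4 15 and in CV4 8 had their lowest. In CV3 all 34 genes were above their Con mean, in CV1 33, and in SV1 and SV6 32 each, whereas in CV4 0 were, in CL4 1 and in CL1 4. The high end thus held Con and Str libraries of the letter V. The lowest counts were in Con libraries, followed by the Str libraries SL5, SL4 and SL1 with 5, 6 and 7 genes. The median deviation of the 34 genes from their Con mean ran from -0.15 in CL4 to 0.30 in SV6 on the log2 scale, while that of all genes stayed between -0.0063 and 0.0093 in every library. Among the libraries with albumin mRNA were both CV3, with all 34 genes above the Con mean, and CV4, with 0.

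The summed level of the core genes was 1090 to 1403 CPM in Con (median 1228) and 1109 to 1480 CPM in Str (median 1200). That of the regulatory particle genes was 1466 to 1756 CPM in Con and 1528 to 1944 CPM in Str, with a median of 1646 CPM in each group. The groups overlapped over most of their range in both sums. The 2 particles kept a nearly fixed proportion, the core sum being 0.729 to 0.799 of the regulatory particle sum in Con and 0.716 to 0.786 in Str.

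**Figure D4:**
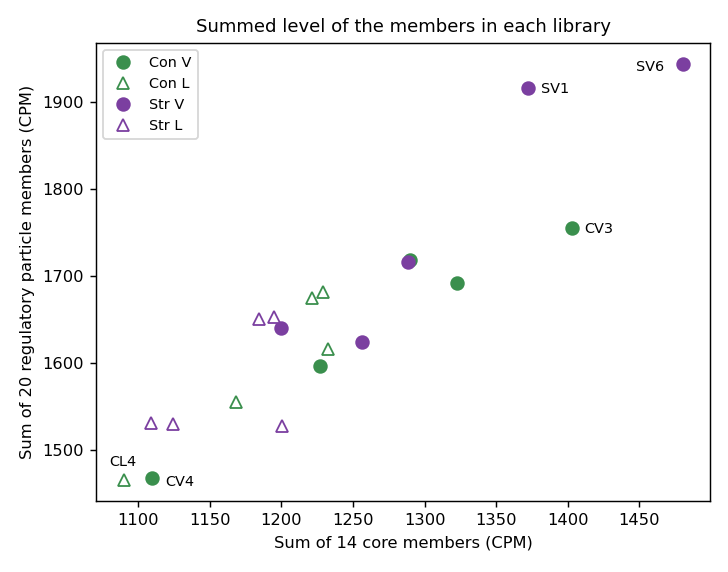
Summed CPM of the 14 core genes (x axis) and of the 20 regulatory particle genes (y axis), 1 point per library, green for Con and purple for Str, filled circles for V and open triangles for L. Points lie along a rising band from CL4 (1090 and 1466 CPM) to SV6 (1480 and 1944 CPM), with Con and Str libraries mixed along it.

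Over the 20 libraries, with the mean of each group subtracted, the 561 pairs of members had a median Pearson r of 0.736 (Spearman 0.711), and 88.2% of pairs were above 0.5. Pairs of a member with any gene outside the list had a median r of -0.0142, and 11.9% of them were above 0.5. The median r was 0.828 within the core, 0.708 within the regulatory particle and 0.725 between the 2. It was 0.617 without SV1 and SV6, the libraries farthest from the median, 0.760 without the Con libraries with albumin mRNA, 0.819 in the V and 0.519 in the L libraries, and 0.725 with library sizes alone. These are descriptions, since all values of a library share its RNA, its depth and its scaling. *Psma6* followed the mean of the other 33 genes most closely (r = 0.965). *Psmd5* (r = 0.540), *Psmd4* (0.594) and *Psmb10* (0.639) followed it least over the 20 libraries. Their r was 0.868, 0.709 and 0.936 in the V libraries, where *Psmc6* (0.687) and *Psmd9* (0.699) were lowest. In the L libraries their r was 0.421, 0.154 and 0.285. These values by letter used group means over both letters, while the medians by letter above used group means within the letter. The 2 kinds of value are therefore not the same measure. Of the 4 genes called between the groups, *Psmd5* and *Psmb10* are among the least close, while *Psmd7* had r = 0.800 and *Psmd12* 0.852.

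The difference between Str and Con was then read within each letter. In the V libraries 29 of the 34 genes were higher in Str on average, with a median log2 fold change of 0.07, and in the L libraries 12 were, with a median of -0.04. The medians of all genes were -0.0020 and -0.0084. Of the 4 Con libraries with albumin mRNA, CV3, CV4 and CV6 are V libraries and CL1 is an L library. The values by letter include these libraries, so letter and albumin mRNA partly coincide in Con. In 33 of the 34 genes the log2 fold change was larger in V than in L, as in 50.2% of all genes, the exception being *Psmd7*. Because the members move together from library to library, this is not 33 separate observations. In the test of the difference between the letters (the interaction term in edgeR), 0 of 34 genes passed (lowest adjusted p = 0.860). At an unadjusted p under 0.05 there was 1, the noncatalytic core gene *Psmb2*, with a difference of 0.20 ± 0.087 (p = 0.035 in the edgeR fit), against 5.78% of all genes. At the adjusted threshold 0 of all 15876 genes passed this test, so 0 of 34 does not set the members apart.

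**Figure D5:**
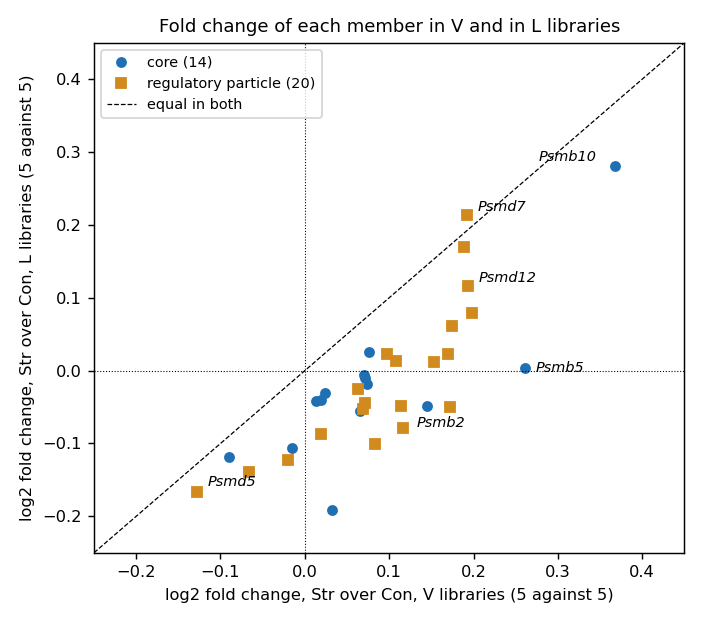
Log2 fold change of each gene (Str over Con) in the V libraries (x axis) and in the L libraries (y axis), circles for core and squares for regulatory particle genes, with a dashed line where both are equal. All points but that of *Psmd7* lie below the dashed line, and *Psmb10* has the largest value on both axes (0.37 and 0.28).

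Within the V libraries alone 1 of 34 genes was called, *Psmb10* (log2 fold change 0.37, adjusted p = 0.0313 in edgeR), where 10.2% of all genes were. Within the L libraries 0 of 34 were called and *Psmb10* had a log2 fold change of 0.28 (adjusted p = 0.103), where 0.0693% of all genes were. An unadjusted p under 0.05 was reached by 7 of 34 genes in V, where 25.8% of all genes reached it, and by 6 of 34 in L, where 16.8% did. *Psmd7* and *Psmd12* had log2 fold changes of 0.19 and 0.19 in V and of 0.21 and 0.12 in L, and *Psmd5* of -0.13 and -0.17, none past the test within a letter.

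The genes that work with the proteasome were taken from lists composed for this work. Of all genes in edgeR, 8.94% were called higher, 7.72% were called lower, and 30.3% had an unadjusted p under 0.05. The activators and the inhibitor of the core (*Psme1* to *Psme4* and *Psmf1*, 5 genes) all had positive log2 fold changes, of 0.08 to 0.15. By edgeR, DESeq2 or limma-voom 0 passed the test over all libraries, with 3 at an unadjusted p under 0.05 in each. In the V libraries alone *Psme3* was called (log2 fold change 0.27, adjusted p = 0.0485, edgeR), where 10.2% of all genes were. In the L libraries *Psme3* had a log2 fold change of 0.02 (adjusted p = 0.930, edgeR). *Psme1* and *Psme2* encode the interferon-inducible cap that goes with the immunoproteasome, and had log2 fold changes of 0.09 and 0.13 (adjusted p = 0.203 and 0.131, edgeR). Of 7 measured assembly chaperones only *Psmd5* passed, and of 7 other constituents and stably bound proteins of the complex, such as the ubiquitin receptor *Adrm1* and the deubiquitinases *Usp14* and *Uchl5*, 0 did by any of the 3 tools, and in edgeR 0 had an unadjusted p under 0.05.

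Among 8 regulators of proteasome gene transcription, 1 was lower and 1 was higher, where 7.72 and 8.94% of all genes were. *Nfe2l2*, which encodes the antioxidant factor NRF2, was at 207 to 246 CPM in Con (median 230) and at 165 to 225 CPM in Str (median 182). All 10 Str libraries lay below the Con median and 9 below the lowest Con library. The log2 fold change was -0.29 ± 0.052 with an adjusted p of 0.000738 in edgeR, and -0.27 (adjusted p = 0.0112) without the Con libraries with albumin mRNA. *Bach1*, a repressor that competes for the same DNA element, was at 89.0 to 117 CPM in Con (median 98.4) and 100.3 to 134 CPM in Str (median 119), with all 10 Str libraries above the Con median. Its log2 fold change was 0.22 ± 0.059 (adjusted p = 0.0114, edgeR), and 0.22 (adjusted p = 0.0661) without those libraries, which ended the call. The *Bach1* and *Nfe2l2* calls were also lost in the L libraries alone. *Nfe2l1*, the factor best known for proteasome genes, had a log2 fold change of 0.09 ± 0.036 (adjusted p = 0.0982, edgeR) and of the 3 tools only limma-voom called it.

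Of 6 shuttle receptors that carry tagged proteins to the proteasome, *Ubqln2* was higher, at 19.4 to 24.6 CPM in Con (median 22.1) and 21.6 to 29.7 CPM in Str (median 24.6). The log2 fold change was 0.20 ± 0.060 (adjusted p = 0.0259, edgeR), and the call was lost in 6 of 33 alternatives. These were library sizes alone (0.16, adjusted p = 0.101), the L libraries alone (0.08, adjusted p = 0.653), the replicate block (adjusted p = 0.0517), the fit without the Con libraries with albumin mRNA (adjusted p = 0.111) and those without SV4 or SV6 (highest adjusted p = 0.0522). Of 5 genes of the VCP segregase, which pulls tagged proteins out of complexes and membranes, *Faf1* was lower with a log2 fold change of -0.09 ± 0.032 (adjusted p = 0.0450, edgeR). That call was lost in 21 of 32 alternatives. Outside the members, 2 of 41 accessory genes were higher and 2 lower, with a median log2 fold change of 0.04. Of all genes 8.94% were higher and 7.72% lower, so these lists do not stand out by their calls.

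NFE2L1 and NRF2 bind antioxidant response elements, and BACH1 competes for them. The sequences around the members' start sites were searched for this element and for 4 others in the RefSeq promoter windows of 28 of the 34 genes (GRCm38.p6, 250 bases before to 50 after the start). *Psmb1*, *Psmb2*, *Psmb7*, *Psmc3*, *Psmd3* and *Psmd7* had no window, so *Psmd7*, called higher in Str, was not searched. *Psma6* and *Psmc2* had further windows, and a gene counted where any of its windows matched. An antioxidant response element core, TGACNNNGC on either strand, was found for 4 of the 28 genes (14.3%), *Psmb5*, *Psmc6*, *Psmd12* and *Psmd9*, and for 13.99% of 27025 genes. Of the 4, *Psmd12* was higher in Str and the others did not pass the test. The 250 bases before the start of each are printed because they hold the element, and those of *Psmd5* because it was the only member called lower. Bases in capitals mark a motif match, in *Psmd9* the first being the interferon-type match described next and the other TGACNNNGC, and *Psmd5* has none. Positions are chr14:54617996-54618245 (minus strand), chr14:45329574-45329823 (plus), chr11:107479278-107479527 (plus), chr5:123227940-123228189 (plus) and chr2:34870963-34871212 (minus).
Psmb5: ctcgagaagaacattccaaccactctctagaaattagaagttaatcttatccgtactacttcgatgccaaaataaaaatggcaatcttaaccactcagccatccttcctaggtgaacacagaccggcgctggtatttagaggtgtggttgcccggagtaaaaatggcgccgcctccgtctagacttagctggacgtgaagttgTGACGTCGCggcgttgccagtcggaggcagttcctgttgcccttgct
Psmc6: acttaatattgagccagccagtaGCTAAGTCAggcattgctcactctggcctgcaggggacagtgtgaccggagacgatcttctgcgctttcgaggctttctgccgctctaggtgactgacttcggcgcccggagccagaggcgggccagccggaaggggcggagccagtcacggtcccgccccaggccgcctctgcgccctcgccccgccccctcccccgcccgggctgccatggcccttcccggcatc
Psmd12: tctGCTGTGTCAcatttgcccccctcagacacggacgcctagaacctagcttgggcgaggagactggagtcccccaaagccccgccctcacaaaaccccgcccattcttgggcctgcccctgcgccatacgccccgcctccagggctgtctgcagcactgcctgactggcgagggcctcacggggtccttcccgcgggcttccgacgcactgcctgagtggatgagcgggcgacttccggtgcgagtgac
Psmd9: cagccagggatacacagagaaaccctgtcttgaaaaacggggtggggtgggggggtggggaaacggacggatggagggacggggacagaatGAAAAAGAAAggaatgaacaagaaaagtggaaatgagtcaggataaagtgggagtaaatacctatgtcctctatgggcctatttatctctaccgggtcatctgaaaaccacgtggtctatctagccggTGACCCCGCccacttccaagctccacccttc
Psmd5: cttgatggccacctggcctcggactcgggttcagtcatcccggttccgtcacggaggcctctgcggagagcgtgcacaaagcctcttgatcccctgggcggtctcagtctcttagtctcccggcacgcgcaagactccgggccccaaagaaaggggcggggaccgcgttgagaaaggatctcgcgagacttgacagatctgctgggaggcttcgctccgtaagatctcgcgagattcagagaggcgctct

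The other motifs were read in the same windows and on both strands. CCAAT was found for 11 of 28 genes (39.3%) and for 41.1% of all genes. The pattern of an interferon-stimulated response element, GAAA, NN and GAAA in a row, was found for 3 genes (10.7%), *Psmb3*, *Psmd4* and *Psmd9*, and for 3.99% of all. TTCNNNGAA, the pattern bound by STAT factors, was found for 1 gene (3.57%), *Psmd2*, and for 9.55% of all. The NFκB pattern, GGGA, N and TTTCC in a row, was found for 0 of 28 and for 0.466% of all. A match says only that the letters are there. The window of *Psmb10* held none of these letters, but only 1 of its 7 annotated transcripts starts within 100 bases of the RefSeq start, so it is not printed. Of the printed ones, 2 of 5 transcripts of *Psmd5* and 3 of 7 of *Psmd9* start that near, so most annotated starts of these 2 genes also lie outside the stretch shown.

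Reads from near-identical copies may be shared by 9 of the 34 genes (*Psma3*, *Psma4*, *Psma5*, *Psmb3*, *Psmb5*, *Psmc1*, *Psmd1*, *Psmd2* and *Psmd11*), for which another annotated gene matched the transcript at 95% identity or more over at least 200 bases, so their levels are less certain. Of the 4 called genes none is among them. Exons on the same strand overlapped those of another gene for *Psmb5* and *Psmd1*.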

How the data were processed

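RNA of sorted colonic IECs (10 Con and 10 Str mice) was sequenced by the authors from directional libraries depleted of ribosomal RNA, aligned with STAR to GRCm38.p4 and counted per gene with HTSeq. The authors deposited these counts as whole numbers, and no scaled value was used (20 scaled columns, 1 per library, were left aside). The initial of each column name, C or S, gave its group.

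The test was edgeR's quasi-likelihood test (version 4.0.16, R 4.3.3) with TMM factors on all 15876 genes. Each gene reached the minimum mean count of 4. Adjustment for multiple tests was by Benjamini-Hochberg across the whole table. CPM were computed with the TMM factors, and log2 CPM used a prior count of 2. The ratio of *Psmb10* to *Psmb7* was taken per library with 0.5 added to each count and tested by 100000 permutations (scipy 1.17.1, seed 50). *Psmb6*, *Psmb8* and *Psmb9* were not analysed here, so 1 of 3 planned ratios was computed. Genes described in full were members at an adjusted p under 0.05, the 2 of smallest p in each family, the catalytic subunits, and list genes at an adjusted p under 0.05. *Psmd3*, *Psmd4* and the list genes named without a call (such as *Psme1*, *Psme2* and *Nfe2l1*) were added after their values were seen. One list of genes is not reported here. The members, lists and alternatives were chosen with earlier results of these data known.

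Alternatives in scaling were RLE factors and library sizes alone. Alternatives in filtering were no filter, filterByExpr and a variance filter that took away the lowest 15%. DESeq2 1.42.0 and limma-voom with quality weights (limma 3.58.1) were the other tools. Further fits had the letter as a covariate, only V or only L libraries, a block by column name, 1 library fewer in turn, or 4 Con libraries fewer (albumin over 20 CPM). The libraries of shared column names without a block, and all correlations, were added after the data were seen. Positions and transcript lengths are those of GENCODE M21 on GRCm38, and copies were sought with blastn 2.17.0. The tests were also run on simulated counts of independent genes with the same dispersion for all. That differs from the real counts, and its outcome is not used as support here. The p-values weigh the difference between groups against the spread between mice, which were treated as independent because cages are not given. Genes with few counts per library, such as *Psmb5*, carry more counting error than the others.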

Additional observations from a re-analysis of the deposited data

Results flagged for a closer look

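In groups of 10 libraries a value was marked where its gap to the nearest other library exceeded 0.466 of the range (Dixon's 95% value). Of 70 groups, 5 had such a value, where chance marks about 1 in 20. Among them 3 belonged to SV6, the Str library with the highest value for 26 of the 34 genes: *Psma7* at 108.7 CPM (nearest 95.6), *Psmb5* at 16.8 CPM (nearest 13.9) and *Psmd10* at 30.2 CPM (nearest 27.1). In SV1, the Str library next in summed regulatory particle level, *Psmd4* was at 135.5 CPM (nearest 122.4). In CV4, a Con library with albumin mRNA in which 0 of 34 genes exceeded their Con mean, *Psmb10* was at 30.4 CPM (nearest 37.8). Without CV4 the log2 fold change of *Psmb10* was 0.29 (adjusted p = 0.00127, edgeR).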

How the results depend on the processing

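Over 1119 values of the 34 genes under the alternatives, 1080 kept their direction where called and their side of the threshold, 24 lost and 15 gained a call, and 0 called values changed sign. Uncalled values changed sign in 96 cases, over 17 genes. The difference in the *Psmb10* to *Psmb7* ratio ranged from 0.18 to 0.31 over 25 alternatives. Of the core genes 1 was called higher and 0 lower, changing to 0 higher in the L libraries alone and 1 lower with library sizes alone. Of the regulatory particle genes 2 were higher, changing to 1 with library sizes alone or with the 15% of least variable genes removed (which left out *Psmd12*), to 0 in V or L alone, and to 4 with the replicate block by column name (*Psmc2* and *Psmd3* in addition). The same 16 libraries without a block also gave 4. With DESeq2 or the letter as a covariate it was 3, *Psmd3* being added, and it ranged from 2 to 3 when 1 library was left out, being 3 without SV5, SL1 or SL5. The 1 lower call became 2 with library sizes alone or limma-voom, and 0 with the variance filter, V or L alone, the block or its libraries without a block. It ranged from 0 to 2 when 1 library was left out. The 2 higher accessory genes became 1 with library sizes alone, 0 without the Con libraries with albumin mRNA or in L alone, and 4 with the block, and ranged from 1 to 3 when 1 library was left out. The 2 lower accessory genes became 1 with RLE factors, the variance filter, without those Con libraries or in V alone, and 0 in L alone, and ranged from 1 to 2 when 1 library was left out. The causes were not tested. In 8 pairs of libraries that share a letter and number, the deviations from the group means correlated at 0.00366 to 0.342, 4 of them above 0.1. With the means of group and letter subtracted, the values ran from -0.0615 (V6) to 0.259 (L2). In 2 of the 8 the Con library correlated best with its own number. These values have no reference for chance, so they do not settle whether the numbers mark pairs. The main test did not treat the numbers as pairs.

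Within L 11 genes of the whole table passed. *Psmb5* and *Psmd9*, the genes with the lowest counts (205 and 261 in their lowest library), are the least precise by depth. Protein levels and proteasome activity were not measured in these libraries.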
